A study of Caenorhabditis elegans with 2 samples.

Results

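The genes described here are 10 members of the p38 and JNK mitogen-activated protein (MAP) kinase cascades of *Caenorhabditis elegans*, taken by their WormBase symbols: tir-1, nsy-1, sek-1, pmk-3, vhp-1, mlk-1, mek-1, kgb-1, jkk-1 and jnk-1. Their sequence names were looked up in the 2 tables of unique reads, and 6 of the 10 had a listed ID, out of 8733 genes with one in all. tir-1, sek-1, pmk-3, vhp-1 and mek-1 had reads in both libraries, and jkk-1 had reads in the mutant library only. nsy-1, mlk-1, kgb-1 and jnk-1 had no listed ID in either table and were not analysed here. The same held for the p38 genes pmk-1 and pmk-2 and for kgb-2, so the deletion itself was not checked.

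The study measured mRNA of whole worms in 2 libraries, 1 per genotype. One library was from the wild-type strain N2 Bristol and the other from KU25, a strain with the pmk-1(km25) deletion on chromosome IV. Both populations were young adults grown at 20 °C on *Escherichia coli* OP50, and both were then kept at 35 °C for 5 h, so heat is shared by the groups and no unheated group is part of the comparison. The design asks how gene expression after heat differs between worms with and without PMK-1, and with 1 library per genotype there is no replicate error, no test and no p-value.

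In a MAP kinase cascade a kinase kinase kinase phosphorylates a kinase kinase, which phosphorylates the MAP kinase, and phosphatases reverse the last step. In the worm, the adaptor TIR-1 and the kinases NSY-1 and SEK-1 act in this order on the p38 kinase PMK-1, a line known for intestinal and epidermal immunity and for stress resistance. MLK-1 and MEK-1 act on the JNK-like kinase KGB-1, JKK-1 acts on JNK-1, and DLK-1 and MKK-4 act on the p38 kinase PMK-3 in neurons. VHP-1 is a MAP kinase phosphatase that restrains PMK-1 and KGB-1. The kinases are controlled mainly by phosphorylation, which transcript reads do not measure.

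With libraries scaled to their total reads, the phosphatase gene vhp-1 and the kinase kinase gene mek-1 were lower in the mutant library. The p38 gene pmk-3 and the kinase kinase gene sek-1 were higher. tir-1 lay on the higher side with an interval that reached 1. Every ratio below divides the mutant CPM by the wild-type CPM (counts per 1 M listed reads) and is given with an exact 95% interval from the 2 read counts that covers counting error only. PCR copies cannot be told from separate molecules here, so these intervals may be too narrow even for that. The libraries held 5.78 M (wild type) and 5.23 M (mutant) uniquely mapped reads.

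**Figure D1:**
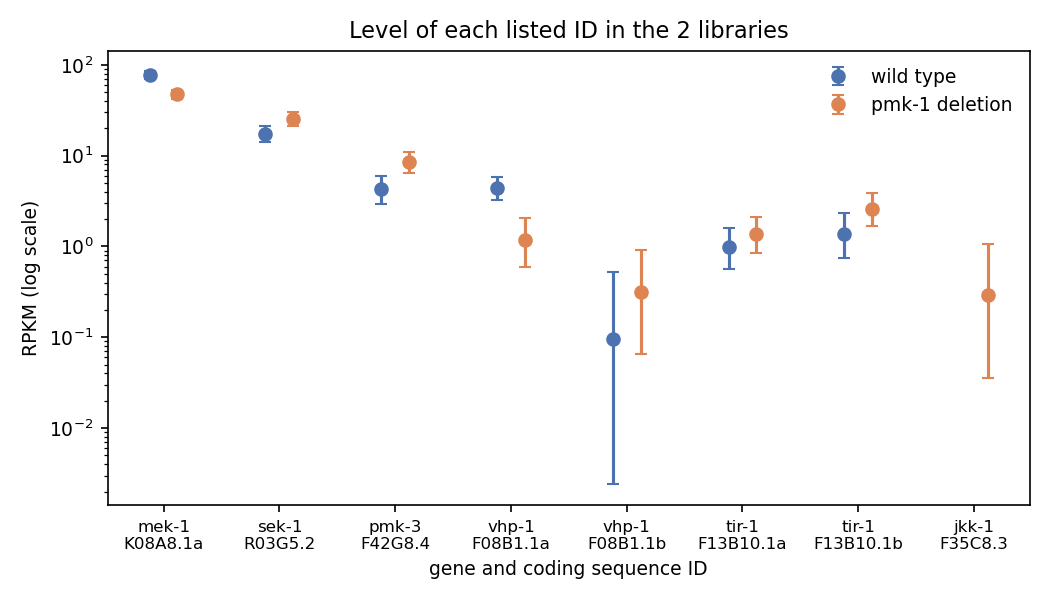
Level of each listed coding sequence ID of the cascade genes, in reads per kilobase of listed length and 1 M listed reads (RPKM, log axis), in the wild-type and the pmk-1 deletion library. Points are single libraries and bars are exact 95% Poisson counting intervals. mek-1 was at 77.2 and 47.2 RPKM, vhp-1 ID F08B1.1a at 4.38 and 1.16, and jkk-1 has no wild-type point because it was listed in the mutant only.

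The p38 line is given first, from adaptor to kinase. tir-1 (F13B10.1), the worm's SARM adaptor, was counted 30 times in the wild type and 44 times in the mutant library, which is 5.19 and 8.41 CPM. Its ratio was 1.62 with library totals, with an interval that reached 1 (0.997 to 2.67). The interval excluded 1 with TMM factors (ratio 1.73, 1.06 to 2.85) and with DESeq2 size factors (1.68, 1.03 to 2.77), so the reading of tir-1 depends on the scaling as well as on its depth. Both of its listed IDs lay on the same side, F13B10.1a with 16 against 20 reads and F13B10.1b with 14 against 24.

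sek-1 (R03G5.2), the MAP kinase kinase directly upstream of PMK-1, had 102 wild-type and 135 mutant reads, or 17.6 and 25.8 CPM. The mutant library was thus 1.46-fold higher (1.12 to 1.91). The reads of sek-1 covered 88.9% (wild type) and 99.2% (mutant) of the 1011 listed bases, so nearly the whole coding sequence contributed to the value.

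pmk-3 (F42G8.4), the p38 kinase of the DLK-1 line, had 35 wild-type and 63 mutant reads, or 6.05 and 12.04 CPM. Its ratio was 1.99 (1.3 to 3.1), the highest of the 5 members with reads in both libraries, and its reads covered 67.9% and 77.0% of the listed sequence. pmk-3, pmk-2 and pmk-1 lie next to each other on chromosome IV in the RefSeq annotation and are known to be transcribed together as an operon, so pmk-3 is the gene of that cluster with values here. Of the next genes beyond pmk-3, islo-1 had 21 against 15 reads (ratio 0.79, 0.379 to 1.61) and isp-1, the Rieske iron-sulphur protein gene of the respiratory chain, had 1582 against 1720 (1.2, 1.12 to 1.29). The isp-1 interval ends below that of pmk-3, and the islo-1 interval overlaps it. On the other side, next to pmk-1, faah-2 and B0218.5 had no listed ID, so that side has no values. Whether the position next to the deleted gene bears on the pmk-3 value was not tested.

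vhp-1 (F08B1.1), the phosphatase gene, had 51 wild-type and 15 mutant reads, or 8.82 and 2.87 CPM. It was 3.07-fold lower in the mutant (1.7 to 5.89), with a log2 ratio of -1.59. Among the 5198 genes that reached 50 reads in either library, 14 had a smaller log2 ratio. vhp-1 is in this set only through its 51 wild-type reads, the library where it is high, so this rank is no separate support. The difference came from 1 of its 2 listed IDs. F08B1.1a had 50 against 12 reads and was 3.77-fold lower (1.98 to 7.77), while F08B1.1b had 1 against 3 reads, too few for a direction. Summed with the b form or taken alone, the a form gave a ratio on the same side.

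On the JNK side, mek-1 (K08A8.1) had the most reads of the members and the narrowest interval. MEK-1 is the kinase kinase of KGB-1 and is also known to contribute to PMK-1 activation. It had 466 wild-type and 258 mutant reads, or 80.6 and 49.3 CPM, and was 1.63-fold lower (1.4 to 1.91). Its reads covered 99.8% and 97.9% of the 1044 listed bases. jkk-1 (F35C8.3), the kinase kinase of JNK-1, was not listed in the wild type, which was taken as 0 reads, and had 2 reads in the mutant. Both counts are at or under the limit of 3 reads that a count of 0 allows, 0.519 CPM (wild type) and 0.574 CPM (mutant), so no ratio is given. Because whole worms were sequenced, fewer cells of a type that expresses a gene and less RNA per cell cannot be told apart for any of these genes.

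A gene was called when either library held 50 or more of its reads, the 2 levels differed 2-fold or more, and the interval left out 1. By this rule 1 of the 4 members at the read level, vhp-1, was called lower, against a background of 1.75% of the 5198 genes. None was called higher, against a background of 17.6%. vhp-1 reached the level through its wild-type reads alone and pmk-3 through its mutant reads alone, and tir-1 and jkk-1 did not reach it. pmk-3 lay just outside the limit of 2-fold and was called higher with the edgeR TMM factors, a scaling on the trimmed mean of gene ratios. Its ratio was 2.12 with these factors, which called 1006 genes higher in all. Without the size limit, the interval excluded 1 on the higher side for 2 of the 4 members (background 30.2%) and on the lower side for the other 2 (background 53.7%). With so few members these shares say nothing particular about the list. The median log2 ratio of the 4 was -0.08, against -0.34 over all 5198 genes, and relative to that median mek-1 was at -0.37, sek-1 at 0.88, pmk-3 at 1.32 and vhp-1 at -1.25.

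The direction of sek-1, pmk-3 and tir-1 depends on what is held equal between the libraries. Setting the median of 27 body tissue markers to equality lowered every log2 ratio by 1.25 and turned sek-1 to a ratio of 0.616 (0.472 to 0.804). pmk-3 turned to 0.837 (0.545 to 1.3) and tir-1 to 0.682 (0.419 to 1.12), both with intervals that reached 1. Under that scaling 303 of all genes were called higher and 3621 lower, against 914 and 91 with library totals. vhp-1 and mek-1 were lower under every scaling tried, with ratios between 0.137 and 0.411 for vhp-1 and between 0.257 and 0.773 for mek-1. No scaling on the oocyte and early embryo markers described below was tried. Their median log2 ratio was -0.86, below that of mek-1 (-0.71) and above that of vhp-1 (-1.59). With that median held equal the mek-1 ratio would lie above 1, though no interval was computed. The direction of mek-1 thus also depends on what is held equal.

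**Figure D2:**
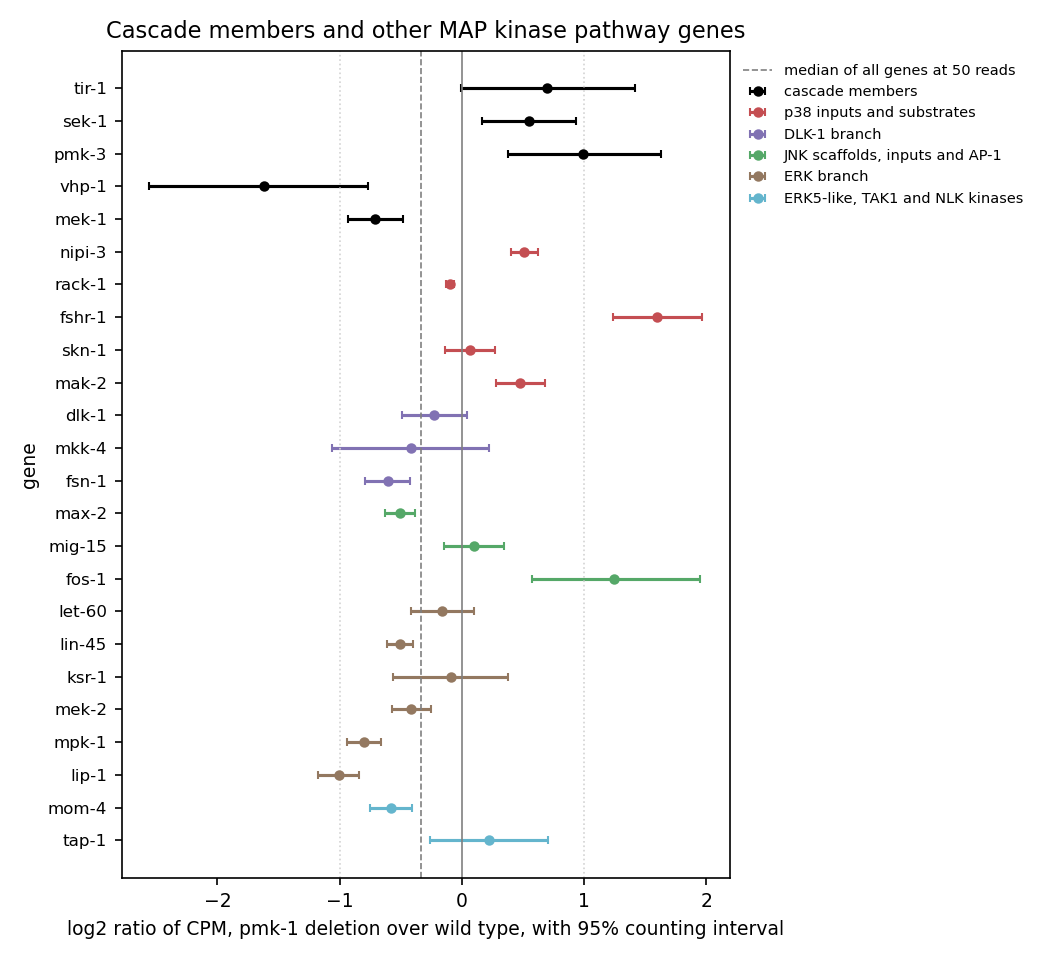
Log2 ratio of CPM, mutant over wild type, for the 5 cascade members with reads in both libraries and for 19 other MAP kinase pathway genes that reached 50 reads in either library. Points are ratios of 2 libraries, bars are exact 95% counting intervals, the dashed line is the median of all genes (-0.34) and the dotted lines mark 2-fold. vhp-1 lies farthest to the left, and fshr-1 and fos-1 lie to the right of the 2-fold line.

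The balance between 2 genes of the same library does not depend on how libraries are scaled, so all 10 pairs of the 5 members were compared in this way. The interval excluded an equal balance for 7 of the 10. Among tir-1, sek-1 and pmk-3, whose single ratios lay above 1, none of the 3 pairs had an interval that excluded an equal balance, with sek-1 over pmk-3 at 2.91 in the wild type, against 2.14 in the mutant (mutant over wild type 0.735, 0.437 to 1.23). Across the 3 pairs the intervals ran from 0.418 to 1.96, so they do not show that the 3 genes moved alike.

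The pairs of these 3 genes with vhp-1 or mek-1, whose single ratios lay below 1, give the size of these differences free of scaling. Each balance is the quotient of 2 single ratios, so these pairs lie above 1 by the way the groups were formed. Their side is no separate support, and a balance does not tell which of its 2 genes differed. There were 2 sek-1 reads for every vhp-1 read in the wild type, against 9 in the mutant, a balance 4.5-fold higher (2.32 to 9.08). For pmk-3 over vhp-1 the balance went from 0.686 to 4.2, which is 6.12-fold higher (2.87 to 13.4) and the largest shift among the 10 pairs. For tir-1 over vhp-1 it was 4.99-fold higher (2.25 to 11.3). For the 2 kinase kinase genes, the balance went from 0.219 sek-1 reads per mek-1 read to 0.523, which is 2.39-fold higher (1.75 to 3.26). Against mek-1, pmk-3 was 3.25-fold higher (2.05 to 5.2) and tir-1 2.65-fold higher (1.58 to 4.47). The balance of vhp-1 over mek-1 was 0.531 of its wild-type balance (0.272 to 0.984), so vhp-1 was lower in the mutant relative to mek-1 as well, by an interval that ends close to 1.

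**Figure D3:**
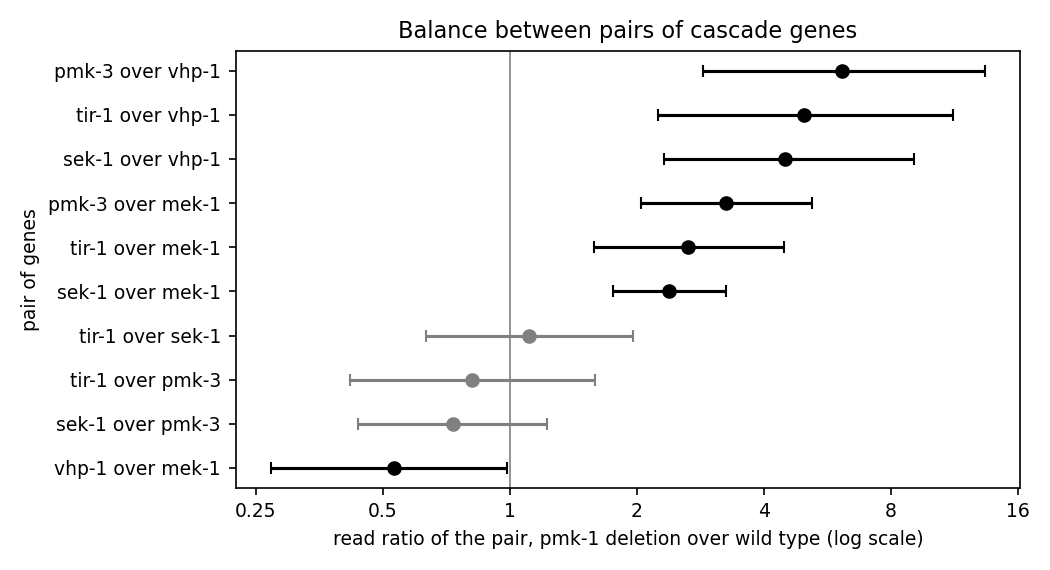
Read ratio within each pair of cascade genes, mutant library over wild-type library (log axis), for all 10 pairs of the 5 members with reads in both. Points are ratios of 4 read counts and bars are exact 95% conditional intervals for counting error, in black where they exclude 1. The 7 black pairs are the 6 between tir-1, sek-1 or pmk-3 and vhp-1 or mek-1, up to 6.12, and vhp-1 over mek-1 at 0.531.

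Levels between genes were compared per listed length, ID by ID. In the wild type, mek-1 stood first with 77.2 RPKM, 4.42-fold (3.56 to 5.54) above sek-1 at 17.4 RPKM, the next of the genes read over most of their length. pmk-3 followed at 4.25 RPKM. The IDs of vhp-1 and tir-1 had reads in a small part of their length, so their RPKM can understate them and are not placed in this order. In the wild type they were at 4.38 RPKM for F08B1.1a, 1.37 for F13B10.1b and 0.99 for F13B10.1a. In the mutant, mek-1 was still first at 47.2 RPKM and sek-1 second at 25.5 RPKM, now 1.85-fold apart (1.5 to 2.3). pmk-3 came next at 8.45 RPKM, with sek-1 3.02-fold above it (2.22 to 4.14). F08B1.1a was at 1.16 RPKM in the mutant, and the tir-1 IDs were at 2.61 and 1.37 RPKM. Among all genes listed in the same library, the level of mek-1 lay above 72.1% of them (wild type) and 65.9% (mutant). That of sek-1 lay above 50.8% and 53.7%, that of pmk-3 above 33.9% and 37.3%, and that of vhp-1 above 34.5% and 16.1%. sek-1 and pmk-3 were thus in the middle or lower part of the listed range, and the percentiles of vhp-1 can understate it.

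The reads of the 2 genes with more than 1 listed ID came from a small part of their sequence. The 50 wild-type reads of F08B1.1a covered 21.1% of 1974 bases, or 416 bases, at a mean depth of 5.89 reads per covered base. The 102 reads of sek-1 had a like depth, 5.56, but spread over 899 of its 1011 bases. In the mutant, the 12 reads of F08B1.1a covered 283 bases (14.3%). The reads of tir-1 ID F13B10.1a covered 10.2% and 9.42% of its 2793 bases, and those of F13B10.1b 18.9% and 26.8% of its 1761 bases. The same was seen across the tables. A single read was 49 bases long, and for IDs with at least 10 wild-type reads the covered share was set against that of the same reads spread evenly. The median of this quotient was 0.978 for 5806 IDs of genes with 1 listed ID and 0.18 for 579 IDs of genes with more. It was 0.998 for mek-1, 0.971 for pmk-3, 0.896 for sek-1, 0.296 for F08B1.1a, 0.417 for F13B10.1a and 0.584 for F13B10.1b. The vhp-1 and tir-1 counts, ratios and level percentiles therefore rest on reads from parts of these genes, and may describe some of their isoforms only. Whether reads shared between isoforms were left out as not unique is not stated in the sources used here and was not tested.

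**Figure D4:**
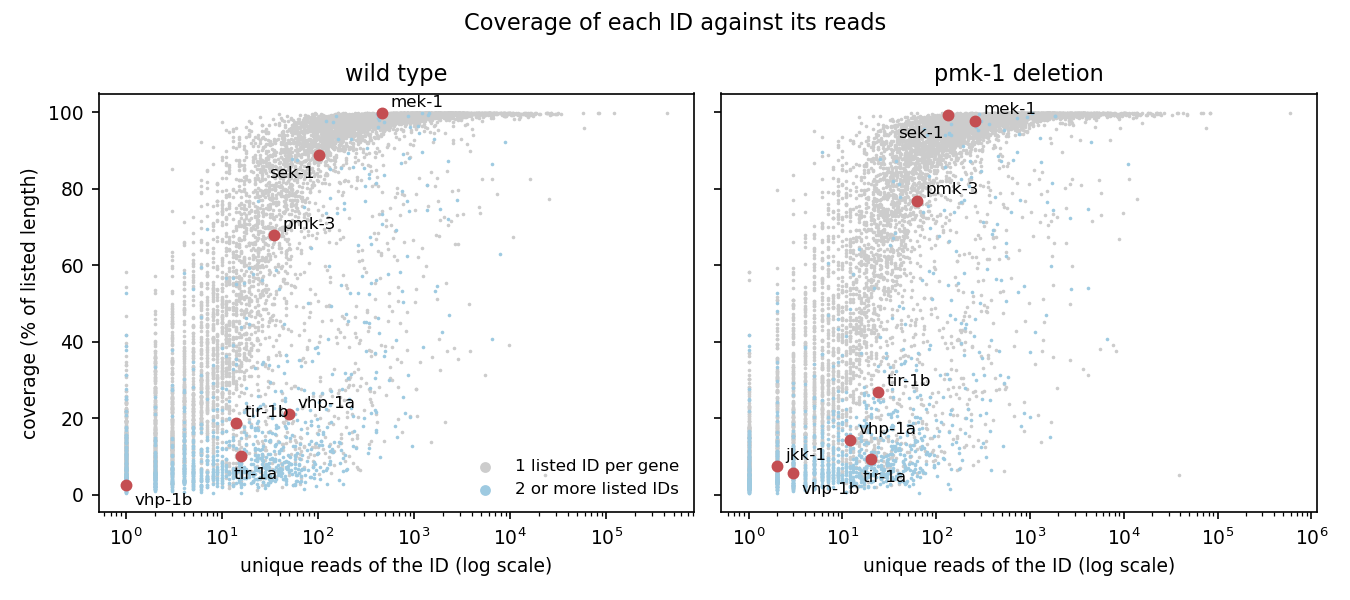
Percent of the listed length covered by reads against the number of unique reads (log axis) for every listed ID in the wild-type (left) and mutant (right) library, with the cascade genes in red and the vhp-1 and tir-1 IDs marked by their isoform letter. Grey points are IDs of genes with 1 listed ID and blue points IDs of genes with 2 or more. mek-1, sek-1 and pmk-3 lie in the grey band, from 67.9% to 99.8%, and the vhp-1 and tir-1 IDs lie among the blue points, at 26.8% or less.

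The other genes of MAP kinase signalling numbered 48, with the unlisted pmk-1, pmk-2 and kgb-2 among them. Of the 48, 33 had reads and 19 reached the read level, with a median log2 ratio of -0.16. Of the 19, 2 were called higher (background 17.6%) and 1 was called lower (background 1.75%). In a list of 12 genes around the p38 line, 9 had reads and 5 reached the level, and 1 of these was called higher. It was fshr-1 (C50H2.1), a receptor for glycoprotein hormones with a part in intestinal immunity, with 87 against 238 reads, 3.03-fold higher (2.36 to 3.91). Where FSHR-1 acts relative to the PMK-1 line was not tested. nipi-3 (K09A9.1), a Tribbles-like pseudokinase upstream of SEK-1 in the epidermis, had 1130 against 1457 reads and was 1.43-fold higher (1.32 to 1.54). The kinase gene mak-2 (C44C8.6), which acts after PMK-3, had 366 against 461 reads and was 1.39-fold higher (1.21 to 1.6). The scaffold gene rack-1 had a ratio of 0.936 (0.915 to 0.958). With the scaling on body tissue markers the median of these 5 genes turned from 0.48 to -0.77 on the log2 scale.

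Upstream of pmk-3, none of the 3 measured genes of the DLK-1 branch was called. All 3 had ratios below 1, as did 64.3% of the 5198 genes, and the intervals of 2 of them reached 1. The kinase kinase kinase gene dlk-1 (F33E2.2) had 274 against 212 reads (ratio 0.856, 0.712 to 1.03) and the kinase kinase gene mkk-4 (F42G10.2) had 53 against 36 (0.751, 0.478 to 1.17). fsn-1 (C26E6.5), the F-box partner of the ubiquitin ligase RPM-1 that limits DLK-1, had 657 against 390 reads and was 1.52-fold lower (1.34 to 1.73). Among 15 scaffolds, inputs and transcription factors of the JNK lines, 11 had reads and 3 reached the level. fos-1 (F29G9.4), an AP-1 transcription factor gene, had 28 against 60 reads and was called higher at 2.37-fold (1.49 to 3.86), passing the level through the mutant alone. max-2 (Y38F1A.10), a p21-activated kinase that acts on MLK-1, had 1374 against 874 reads and was 1.42-fold lower (1.3 to 1.55), and the kinase gene mig-15 had a ratio of 1.07 (0.906 to 1.27).

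The ERK line, which drives vulval induction and oocyte meiosis, had all 7 genes listed and 6 at the level. Of the 6, 1 was called lower (background 1.75%) and none higher (background 17.6%). All 6 log2 ratios were below 0, where 64.3% of the 5198 genes lay, and the intervals of let-60 (ratio 0.894, 0.748 to 1.07) and ksr-1 (0.939, 0.678 to 1.3) reached 1. lip-1 (C05B10.1), the phosphatase gene that restrains the ERK kinase MPK-1 in the germline, had 938 against 422 reads and was 2.01-fold lower (1.79 to 2.26). mpk-1 (F43C1.2) had 1249 against 648 reads and was 1.74-fold lower (1.58 to 1.92), the Raf gene lin-45 was 1.42-fold lower (1.32 to 1.53) and mek-2, the kinase kinase gene, 1.33-fold lower (1.19 to 1.49). lip-1 was not called with TMM, DESeq2 or read-level size factors. Of the TAK1 and NLK kinases, mom-4 had 718 against 435 reads (1.49-fold lower, 1.32 to 1.69) and its partner tap-1 72 against 76 (ratio 1.17, 0.834 to 1.63).

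Markers of whole tissues differed between the libraries alongside these genes. Of 86 markers in 7 lists, 71 had reads. All 14 measured oocyte and early embryo markers had intervals on the lower side (background 53.7%) and 2 of them were called lower (background 1.75%). Their summed level went from 12598 CPM in the wild type to 7072 in the mutant, with log2 ratios from -1.01 to -0.73. mek-1, at -0.71, lay just above that range, mpk-1 (-0.80) within it, and vhp-1 (-1.59) below it. Of 50 markers of body wall muscle, pharynx, neurons, intestine and hypodermis, 41 had reads and 27 reached the level. Of the 27, 22 were called higher (background 17.6%) and none lower (background 1.75%). By the interval alone 25 were higher (background 30.2%) and 1, of the hypodermis, was lower (background 53.7%). The interval of 1 neuron marker reached 1. The summed level of the 41 went from 9008 to 19299 CPM. At the read level, which a marker can reach through the mutant alone, the medians of these 5 lists ran from 1.08 to 1.5. pmk-3 (0.98) and sek-1 (0.55) lay below all of them. Over all markers with reads the medians were 1.25 (body wall muscle), 1.54 (pharynx), 0.97 (neurons), 0.95 (intestine) and -0.30 (hypodermis). pmk-3 then lay above those of neurons, intestine and hypodermis, and sek-1 above that of hypodermis only. The 16 sperm markers with reads summed to 43.7 CPM in the wild type, against 440 in the mutant. ssp-19, unc-89, pha-4 and elt-3 were at 0 reads in the wild type. What part these tissue differences have in the values of the cascade genes was not tested. The balances between pairs of cascade genes do not depend on scaling, but they are not free of tissue make-up.

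**Figure D5:**
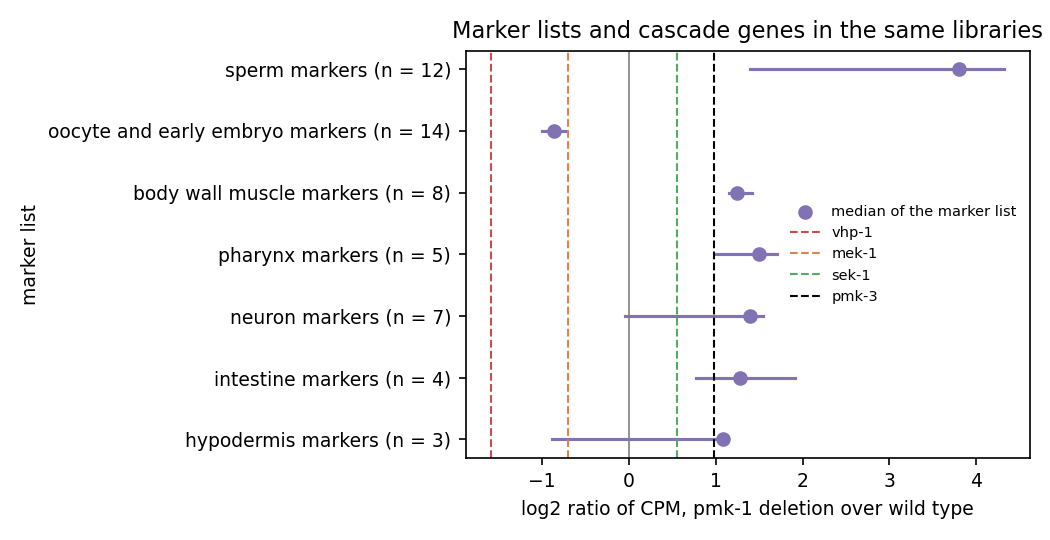
Log2 ratio of CPM, mutant over wild type, for 7 lists of tissue markers, with points at the list median and lines from the lowest to the highest marker at the read level. Dashed lines give vhp-1 (-1.59), mek-1 (-0.71), sek-1 (0.55) and pmk-3 (0.98). mek-1 falls just above the oocyte markers and within the range of the hypodermis markers, and vhp-1 falls below every list.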

How the data were processed

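Per the file headers, the authors deposited the count of unique reads for each coding sequence ID, its RPKM and the percent of its length covered. Per the labels' protocols, oligo(dT) beads, random hexamer priming and an Illumina HiSeq were used, and no strand-specific kit is named. What aligner, counter and genome build the authors used is not given in the sources used here. Recomputed RPKM differed from the deposited RPKM by a relative error of at most 2.77e-08. All 9430 IDs had lengths divisible by 3, so untranslated regions were not counted, and 9383 IDs matched WBcel235 sequence names, used for names, chromosomes and gene order.

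Reads of a gene's IDs were summed, and an unlisted ID was taken as 0 reads, which was not tested. Ratios of CPM have exact Clopper-Pearson conditional binomial intervals and pairs have exact conditional odds ratio intervals (SciPy 1.17.1). Log2 ratios used a prior of 0.5 reads. The interval and call rule were tested on simulated data. Scaling alternatives used edgeR 4.0.16 and DESeq2 1.42.0 for factors only. The 10 members and all lists were chosen with earlier results of these data known. Pathway genes named are up to 4 of each list at the read level with the largest absolute log2 ratio. islo-1, isp-1, faah-2 and B0218.5 were named by position. One marker symbol, opt-2, matched no annotated gene.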

Additional observations from a re-analysis of the deposited data

How the results depend on the processing

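Scaling had the largest effect. With the median of body tissue markers set to 0, sek-1 and pmk-3 turned to ratios of 0.616 and 0.837, tir-1 to 0.682, vhp-1 to 0.137 and mek-1 to 0.257. The count of members called lower was then 2 and the median of the 4 members -1.33. The median of all other pathway lists was -1.41 (0 called higher, 15 lower). That of the ERK branch was -1.71, of the DLK-1 branch -1.66 and of the list around the p38 line -0.77. Among all genes, 303 were called higher and 3621 lower, against 914 and 91 with library totals, so 90.9% of calls were on the higher side with library totals and 7.72% here. With TMM, 1 member (pmk-3) was called higher, the members' median turned to 0.012 and no other pathway gene was called lower (0). In all, 1006 genes were called higher and 59 lower with TMM. With DESeq2 size factors, 1 member was called higher and 0 other pathway genes lower, with 972 genes higher and 76 lower in all. With size factors over genes at the read level, added after the data were seen, 1 member was called higher, mek-1 was at 0.773, the members' median turned to 0.26 and that of other pathway lists to 0.18 (0 called lower). The ERK branch was then at -0.12, the list around the p38 line at 0.81 and the DLK-1 branch at -0.070. In all, 1244 genes were called higher and 25 lower with these factors. At a level of 10 reads the members' median turned to 0.55 (1531 genes called higher, 157 lower) and with no minimum to 0.62 (1601 and 164). At 1.5-fold, 1 member was called higher and 2 lower, with 1299 genes higher and 1437 lower in all. The interval of tir-1 excluded 1 with TMM, DESeq2 and read-level factors (1.26 to 3.37 with the last). The 10 pair balances kept their side with only the ID with the most reads of each gene. Direction and call of vhp-1 were the same in every setting run. The read level was only lowered and the fold limit only relaxed, so those settings could not undo the call. With 51 reads in the wild type, vhp-1 lay just above the main read level, and no higher level was run. Whether its call holds under a stricter rule was not tested. No paired analysis was possible because each genotype has 1 library, and for the same reason no replicate could be left out. Depth limits jkk-1 most, with 0 and 2 reads, and then tir-1, vhp-1 and pmk-3, with 15 to 63 reads in a library.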
